A study of Mus musculus with 16 samples.

Results

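The chromatin around 10 target genes of YAP and TAZ was described: Ccn1 (also called Cyr61), Axl, Ajuba, Amotl1, Crim1, F3, Nt5e, Cd44, Fstl1 and Ptpn14. The peaks described are the differentially accessible ATAC-seq peaks whose centre lies nearest to a protein-coding transcription start site of one of these genes, 107 of 80367 listed peaks. ATAC-seq cuts accessible DNA with the Tn5 transposase, so that a peak marks open chromatin. The study compared GFPhigh (Hes1-GFP positive) with GFPneg (Hes1-GFP negative) cells of mouse small cell lung cancer (SCLC), the former being the non-neuroendocrine (non-NE) and the latter the neuroendocrine (NE) cells of the tumors. All cells came from TKO;Hes1 GFP/+ mice, in which floxed Rb, p53 and p130 had been deleted in the lungs of adult animals by an adenovirus carrying Cre under the broadly active CMV promoter, and in which GFP is read from the endogenous Hes1 locus. Both groups therefore came from mice with the same floxed alleles and the same reporter allele. Whether every sorted cell carried the deletions was not tested here. Tumors of each mouse were pooled before sorting, and cells were stained for CD24 and for the blood and endothelial markers CD45, CD31 and TER-119. The authors' wording treats CD24 as a positive selection marker and the others as negative ones.

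Each group had 4 libraries from 3 mice, and 2 of the 4 pairs came from 1 mouse, so the 4 libraries of a group are not independent samples. Each of the 8 libraries was run on 2 lanes, which gives 16 runs. The files give 1 signal per peak, the authors' mean over all libraries of read counts divided by size factors, called the mean normalized count below, and the list that a peak stands in. A peak is called opened where the authors found it more accessible in GFPhigh cells and closed where they found it less accessible. No value per library is given, so sequencing depth is unknown and no spread between mice can be stated. Every count below describes 2 finished lists, and no test was made. Intervals are 95% Wilson intervals of a share, and they cover counting error only, since peaks of 1 gene are not replicates. In a bulk sample, fewer cells with an open site and a less open site in each cell cannot be told apart.

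YAP and TAZ are transcriptional co-activators that the Hippo kinases LATS1 and LATS2 hold in the cytoplasm by phosphorylation. When they enter the nucleus they bind DNA through TEAD factors, often at enhancers that also carry sites for AP-1, the dimer of JUN and FOS proteins. Their targets include secreted matrix proteins, cell surface receptors and proteins that restrain YAP in turn. In the lung, NE cells are known for low YAP, and airway epithelial cells such as club cells for its presence.

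The peak sequences below show where the TEAD core (CATTCC, or GGAATG on the other strand) lies in opened promoters and an opened intron. They are written 5′ to 3′ on the plus strand of mm10, read from RefSeq GRCm38.p6, with each TEAD core in capitals. The Ccn1 promoter at chr3:145649982-145650165 is the part of the peak upstream of the transcribed region of this minus-strand gene, and its core stands at position -105 from the start site. The Ptpn14 promoter at chr1:189727929-189728228 is the upstream part of a promoter peak with 2 cores, at positions -266 and -143. The Ajuba intron at chr14:54572886-54573185 holds 3 cores.
Ccn1 promoter: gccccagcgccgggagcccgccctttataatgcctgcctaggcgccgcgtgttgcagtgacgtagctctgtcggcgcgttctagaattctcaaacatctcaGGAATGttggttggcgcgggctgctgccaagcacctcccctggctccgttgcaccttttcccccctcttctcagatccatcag
Ptpn14 promoter: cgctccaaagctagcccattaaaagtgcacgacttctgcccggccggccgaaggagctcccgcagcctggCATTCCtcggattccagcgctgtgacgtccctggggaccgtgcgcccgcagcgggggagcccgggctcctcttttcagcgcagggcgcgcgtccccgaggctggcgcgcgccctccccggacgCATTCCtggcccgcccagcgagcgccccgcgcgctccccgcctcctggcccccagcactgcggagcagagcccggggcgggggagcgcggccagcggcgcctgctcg
Ajuba intron: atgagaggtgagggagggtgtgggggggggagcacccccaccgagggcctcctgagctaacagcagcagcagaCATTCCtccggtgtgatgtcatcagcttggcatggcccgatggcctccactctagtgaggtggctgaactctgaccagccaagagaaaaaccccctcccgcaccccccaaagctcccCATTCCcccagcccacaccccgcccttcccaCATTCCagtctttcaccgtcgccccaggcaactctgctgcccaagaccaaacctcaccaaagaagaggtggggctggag

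Of the 107 peaks, 74 were opened and 33 closed in GFPhigh cells, an opened share of 69.2% (interval 59.9 to 77.1%), against 50.8% of all listed peaks. The excess lay in the weaker peaks. Of the 59 peaks with a mean normalized count under 50, 45 were opened (76.3%, interval 64.0 to 85.3%), against 43.6% of all listed peaks under that limit, while of the 48 at or above it 29 were opened (60.4%, interval 46.3 to 73.0%), against 64.4%. Each of the 10 genes had at least 1 opened peak, as did 52.3% of all 21827 protein-coding genes. Closed peaks were listed at 7 of the 10, against 42.2% of all genes. Opened peaks outnumbered closed ones at 7 genes, numbers were equal at Axl and Amotl1, and Ccn1 alone had more closed than opened peaks, 7 against 6. Among the 14580 genes with a listed peak, 54.9% had more opened than closed peaks. The median opened share per gene was 73.3% for the 10 genes and 66.7% for all genes with a listed peak, so that the excess was smaller per gene than per peak. The number of listed peaks ran from 2 at F3 to 23 at Crim1, beside a median of 3.00 for genes with a listed peak. As many as the 23 of Crim1 or more were found at 2.18% of all protein-coding genes, and as many as the 20 of Ptpn14 at 2.99%. Per 100 kb of sequence nearest to the gene's start sites, the density ran from 1.60 at Crim1, with 1433 kb of such sequence, to 15.5 at Ajuba, with 25.8 kb, against 2.95 over all chromosomes.

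**Figure D1:**
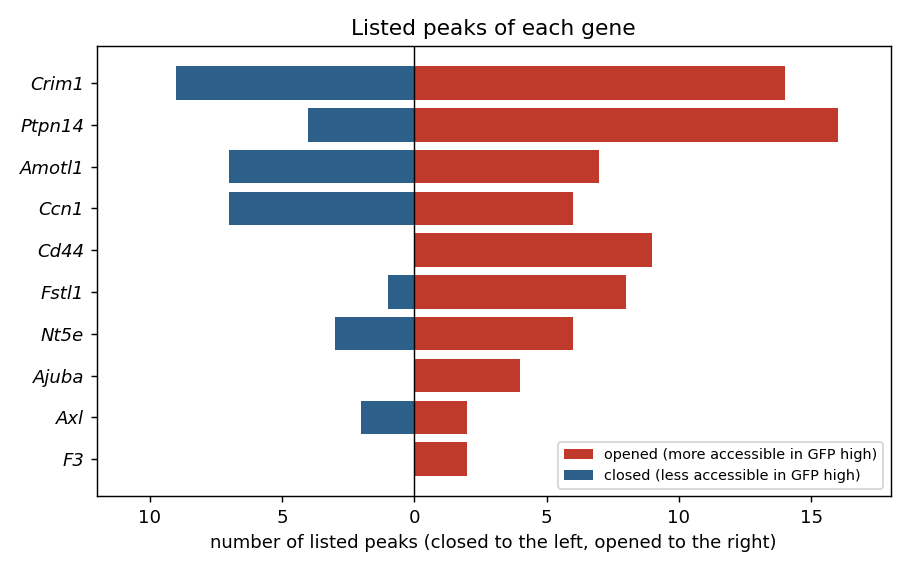
Number of listed peaks of each gene, with closed peaks as bars to the left of 0 and opened peaks as bars to the right. Crim1 and Ptpn14 had the most, Cd44, Ajuba and F3 had opened peaks only, and Ccn1 had 7 closed against 6 opened.

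Promoter peaks, whose centre lies within 1 kb of a start site of the gene, were all opened. Ptpn14 had 4, Ccn1 3, Ajuba 2 and Fstl1 1, so that 4 of the 10 genes had an opened promoter, against 26.7% of all protein-coding genes. None of the 10 had a closed promoter peak, which 8.46% of all genes had. Promoter peaks made up 13.5% (interval 7.51 to 23.1%) of the 74 opened peaks, against 18.8% of all opened peaks. The other 6 genes, Axl, Amotl1, Crim1, F3, Nt5e and Cd44, had listed peaks away from their promoters. Of the opened peaks, 44 were centred in introns, 27 between genes, 2 in a 5′ UTR and 1 in a coding exon, and of the closed peaks, 19 were centred in introns and 14 between genes.

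Gene by gene, the proteins that act back on YAP and TAZ come first. Together Ptpn14, Ajuba and Amotl1 had 27 opened and 11 closed peaks, an opened share of 71.1% (interval 55.2 to 83.0%), against 50.8% of all listed peaks.

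Ptpn14, a protein tyrosine phosphatase that binds YAP and keeps it out of the nucleus, had 16 opened and 4 closed peaks over its locus (chr1:189728268-189876695, plus strand). The peak at its upstream start site (chr1:189727929-189728593) had the highest mean normalized count of all 107 peaks, 442, above 96.6% of all opened peaks. The neighbouring promoter peak, centred 0.688 kb upstream, had 215. At the internal start site of the gene a pair of opened promoter peaks stood at 17.4 and 48.0. Next to them an opened peak and a closed peak (chr1:189785227-189785810, mean normalized count 75.2) were only 379 bases apart, the closest pair of opposite direction around the 10 genes. TEAD cores were found in 8 of the 16 opened and in none of the 4 closed peaks of Ptpn14. An opened peak 11.7 kb upstream (chr1:189716431-189716723, mean normalized count 35.0) held a TEAD core and an AP-1 string 64 bases apart.

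Ajuba, a LIM-domain adaptor that binds and inhibits LATS kinases, had 4 opened peaks and no closed one within 5.58 kb (gene at chr14:54567472-54577558, minus strand). The promoter peak at its start site (chr14:54577434-54577729) had a mean normalized count of 124, a second promoter peak 27.4, and the intron peaks 153 and 195. The highest of these (chr14:54572808-54573258) is the one with 3 TEAD cores printed above. One of these cores overlaps by a base with a match to the RBPJ string.

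Amotl1, an angiomotin-family scaffold that holds YAP at cell junctions, had 7 opened and 7 closed peaks, all 14 within its introns (gene at chr9:14541966-14645056, minus strand). The opened peaks had mean normalized counts from 10.6 to 61.4, whereas the closed peaks ran from 29.7 to 392. The closed intron peak at 392 (chr9:14574660-14575563) stood above 99.6% of all closed peaks, and those at 254 and 233 above 98.6% and 98.3%. The ranges overlap, but 5 of the 7 closed peaks exceed every opened peak of the gene. A TEAD core and an AP-1 string shared 2 of the closed peaks, 355 bases apart at chr9:14559456-14560075 and 40 bases apart at chr9:14588749-14589003.

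**Figure D2:**
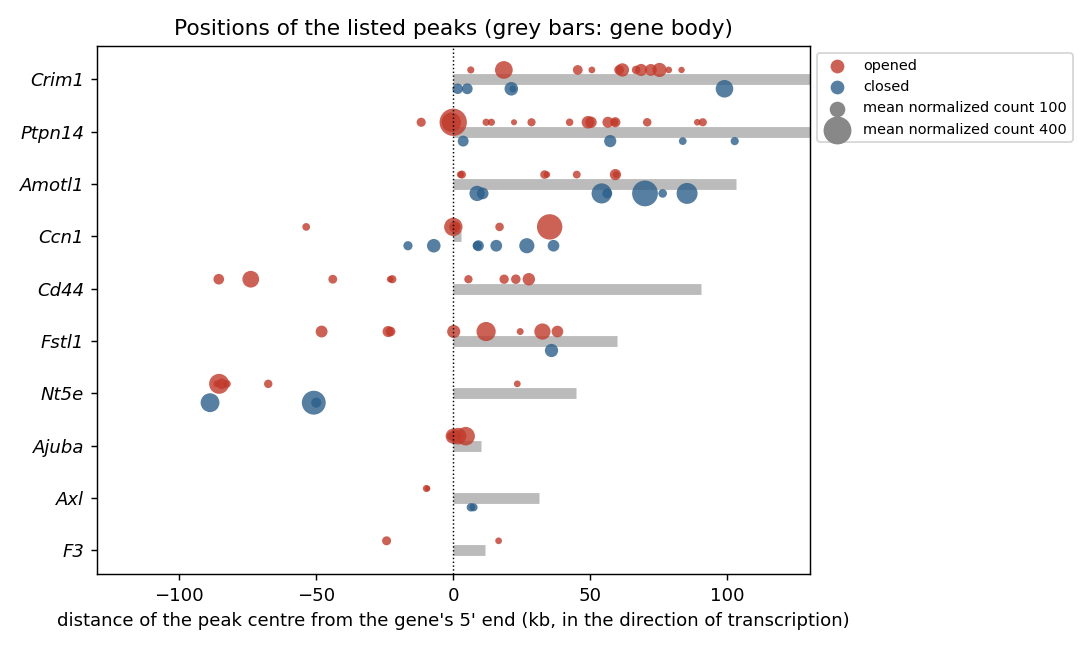
Distance of each listed peak from the 5′ end of its gene in kb, in the direction of transcription, with opened peaks above and closed peaks below the grey gene body and dot area growing with the mean normalized count. The plot ends at 130 kb on both sides and leaves out 6 peaks of Crim1; the closed introns of Amotl1, the far upstream cluster of Nt5e and the promoters of Ptpn14, Ccn1 and Ajuba stand out by size or position.

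The cell surface proteins Cd44, Nt5e, Axl and F3 had 19 opened and 5 closed peaks, an opened share of 79.2% (interval 59.5 to 90.8%), against 50.8% of all listed peaks. None of the 24 lay at a promoter. Among these sites are examples where a TEAD core and an AP-1 string, TGACTCA or its reverse complement TGAGTCA, share a peak. The sequences below print such peaks whole, to set 3 opened distal peaks beside the weaker of the closed peaks of Amotl1 with both strings. TEAD cores and AP-1 strings are in capitals, and all are plus-strand sequences of the same build. Positions are chr2:102878737-102878948 for Cd44, chr9:88242645-88242860 for Nt5e, chr7:25798384-25798601 for Axl and chr9:14588749-14589003 for Amotl1.
Cd44 opened: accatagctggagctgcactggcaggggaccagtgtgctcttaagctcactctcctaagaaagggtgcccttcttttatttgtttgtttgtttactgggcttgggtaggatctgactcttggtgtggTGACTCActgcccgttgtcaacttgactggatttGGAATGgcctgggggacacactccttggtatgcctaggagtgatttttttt
Nt5e opened: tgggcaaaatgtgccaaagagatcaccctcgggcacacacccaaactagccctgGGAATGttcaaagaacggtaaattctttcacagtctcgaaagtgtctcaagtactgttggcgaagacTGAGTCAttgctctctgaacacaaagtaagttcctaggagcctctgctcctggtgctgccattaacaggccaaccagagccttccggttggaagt
Axl opened: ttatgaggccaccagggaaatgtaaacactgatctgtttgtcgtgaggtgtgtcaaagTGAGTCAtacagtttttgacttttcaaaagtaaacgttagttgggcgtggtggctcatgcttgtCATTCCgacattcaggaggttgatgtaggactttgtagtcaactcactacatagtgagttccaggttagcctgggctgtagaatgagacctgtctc
Amotl1 closed: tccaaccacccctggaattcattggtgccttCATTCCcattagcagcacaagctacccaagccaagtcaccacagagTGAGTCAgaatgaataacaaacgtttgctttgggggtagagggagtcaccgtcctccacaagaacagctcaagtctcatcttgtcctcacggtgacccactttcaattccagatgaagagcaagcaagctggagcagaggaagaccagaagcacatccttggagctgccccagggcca

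Cd44, the receptor for hyaluronan, had 9 opened peaks and no closed one (gene at chr2:102811141-102901665, minus strand). Of the 2717 genes with as many listed peaks or more, 181 (6.66%) had opened peaks only and 306 had closed peaks only. The peaks of Cd44 reached from 27.2 kb inside the gene to 85.5 kb upstream. The highest, with a mean normalized count of 156, lay 73.8 kb upstream (chr2:102975267-102975761), and the lowest had 10.5. None was within 1 kb of any of its 7 start sites. The intron peak printed above, with 39.7, held its TEAD core and AP-1 string 27 bases apart. TEAD cores were in 3 and FOX strings in 4 of the 9 peaks.

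Nt5e encodes CD73, the ecto-nucleotidase that makes adenosine outside the cell. It had 6 opened and 3 closed peaks, of which 1 opened peak, with a mean normalized count of 11.9, lay inside the gene (chr9:88327197-88372092, plus strand). The rest stood far upstream, and closed and opened peaks lay close together there. An opened peak 85.4 kb upstream (chr9:88241605-88241983) had 228, and its neighbour printed above, 84.4 kb upstream with 52.0, held a TEAD core and an AP-1 string 61 bases apart. A closed peak 88.7 kb upstream (chr9:88238263-88238724) had 202 and the same 2 strings with 244 bases between them. The highest closed peak, 334, lay 50.9 kb upstream (chr9:88276102-88276558), above 99.4% of all closed peaks. The next nearest coding gene to these sites was Snx14, from 162 to 200 kb away from the 3 closed ones. Among start sites of any gene type, however, those of Gm28231 or Gm5066 lay nearer to all the upstream peaks than that of Nt5e.

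Axl, a receptor tyrosine kinase that binds Gas6, had 2 opened and 2 closed peaks (gene at chr7:25757273-25788705, minus strand). Its closed intron peaks had mean normalized counts of 24.1 and 27.1. The opened peaks, 9.38 and 9.79 kb upstream, had 3.03, the lowest of the 107, and 14.8. The weaker one (chr7:25798034-25798135) lay wholly in sequence that RefSeq masks as repeats and had a mean normalized count above only 0.00735% of opened peaks. The other is the printed peak with its strings 57 bases apart, and 41.3% of its bases are masked. F3, which encodes tissue factor, the initiator of blood coagulation, had 2 opened peaks (gene at chr3:121723537-121735048, plus strand). They had mean normalized counts of 33.8, 24.3 kb upstream, and 11.8, 16.5 kb downstream of the start site, beyond the gene's end. The first held an AP-1 string, and neither held a TEAD core.

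The secreted proteins Ccn1 and Fstl1 and the membrane-anchored Crim1 had 28 opened and 17 closed peaks, an opened share of 62.2% (interval 47.6 to 74.9%). This interval contains the 50.8% of all listed peaks. Crim1, which could also be counted with the cell surface proteins, gave 23 of these 45 peaks, 14 opened and 9 closed.

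Ccn1, a matricellular protein that binds integrins and a textbook YAP target, had 6 opened and 7 closed peaks (gene at chr3:145646976-145649981, minus strand). All 3 peaks within the gene were opened promoter peaks, with mean normalized counts of 191 at the start site (chr3:145649744-145650165), 63.6 in a coding exon and 28.2 in an intron. Downstream of the gene, opened and closed peaks were interspersed. All but 1 of its 6 opened peaks held a TEAD core, as did 1 of its 7 closed peaks, whereas AP-1 strings were in 1 opened and 3 closed peaks. The opened peak with both (chr3:145632932-145633251, mean normalized count 28.7) had them 8 bases apart, the shortest such distance at the 10 genes.

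Fstl1, a secreted follistatin-like glycoprotein, had 8 opened peaks and 1 closed one (gene at chr16:37776873-37836514, plus strand). Its opened promoter peak (chr16:37776870-37777208) had a mean normalized count of 89.8, and the highest peak, 210, lay in an intron 12.0 kb from the start site (chr16:37788370-37789350). The closed intron peak (chr16:37812464-37812920), with 91.6, had opened peaks on both sides, the nearer of them 1775 bases away.

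Crim1, a membrane-anchored protein that binds bone morphogenetic proteins, had 14 opened and 9 closed peaks (gene at chr17:78200248-78376592, plus strand). It had no listed promoter peak. The first closed intron peak was centred 1.63 kb from the start site, with a mean normalized count of 52.0. Further in, and chosen for mention after the values were seen, 10 opened peaks followed each other from 45.4 to 83.3 kb without a closed one, over 38.1 kb of intron, with mean normalized counts from 8.96 to 107. The highest opened peak of Crim1, 177, lay before this block at 18.5 kb (chr17:78218426-78218997), and the highest closed peak, 174, lay behind it at 98.9 kb (chr17:78298818-78299534). The remaining 4 intron peaks, 1 opened and 3 closed, lay within 21.7 kb of the start site, with mean normalized counts from 13.1 to 97.1. Another 6 peaks, 2 opened and 4 closed, lay between 197 and 1233 kb upstream in a stretch without another coding start site, with mean normalized counts from 10.7 to 65.9. TEAD cores were in 1 of the 14 opened peaks and 1 of the 9 closed ones, the smallest opened share with a core of the 9 genes that had any.

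**Figure D3:**
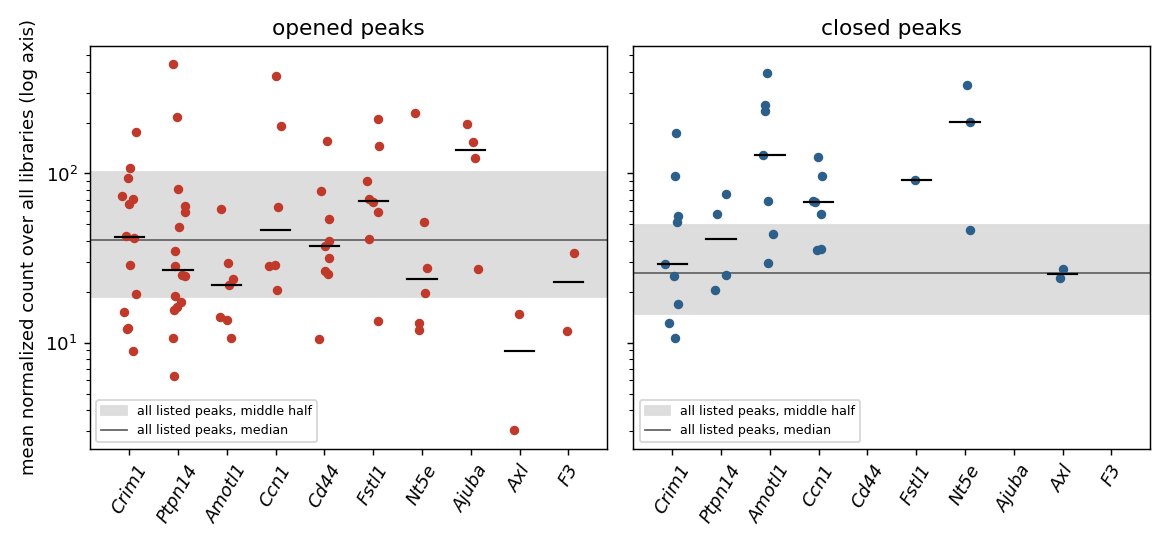
Mean normalized count of each listed peak by gene on a log axis, opened peaks on the left and closed peaks on the right, with the gene's median as a black bar. The grey line and band are the median and the range between the quartiles of all listed peaks of that direction; the closed peaks of Amotl1, Ccn1 and Nt5e lie mostly above the band.

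Over all 107 peaks, the closed peaks of these genes were strong for their kind. Their median mean normalized count was 57.4, against 25.8 for all closed peaks, and 19 of the 33 (57.6%) stood above the upper quartile of the closed list, where 25% would stand by definition. The opened peaks had a median of 32.8, against 40.7 for all opened peaks, and 13 of the 74 (17.6%) stood above the upper quartile of theirs. Widths went the same way, with a median of 320 bases for the closed peaks, against 248 in the whole closed list, and 290 for the opened ones, against 300. Median GC content was 49.4% for the opened and 49.1% for the closed peaks, beside 51.1% and 48.9% in the whole lists. Along the chromosome, neighbouring peaks of 1 gene were of opposite direction in 31 of 97 pairs (32.0%, interval 23.5 to 41.8%), against 25.2% for all genes. Ccn1 and Ptpn14 had 7 such switches each, Crim1 6 and Amotl1 5.

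The TEAD core was found in 27 of the 74 opened peaks, 36.5% (interval 26.4 to 47.9%), against 25.4% of all opened peaks and 24.3% of opened peaks matched in width. In closed peaks it was found in 6 of 33, 18.2% (interval 8.61 to 34.4%), against 12.0% of all closed peaks and 14.9% of those matched in width. The interval of the opened peaks lies just above the share of all opened peaks, and that of the closed peaks contains the share of all closed ones. By signal, cores were found in 12 of the 29 opened peaks with a mean normalized count of at least 50 (41.4%, against 30.5% of all such opened peaks) and in 15 of the 45 weaker ones (33.3%, against 21.4%). Of the 27 opened peaks with a core, 8 belonged to Ptpn14, 5 to Ccn1, 3 each to Cd44 and Fstl1, 2 each to Ajuba, Amotl1 and Nt5e, 1 each to Axl and Crim1, and none to F3. Without Ccn1 and Ptpn14 the share was 26.9% (14 of 52), near that of all opened peaks. The longer string ACATTCCA was in 6 opened peaks (8.11%, against 4.00% of all opened peaks), at Ccn1, Ajuba, Fstl1, Cd44 and Nt5e, and in 1 closed peak, of Amotl1 (3.03%, against 0.784% of all closed peaks). Of the 32 cores in opened peaks, 24 (75.0%) lay within 100 bases of the peak's centre, against 63.0% in all opened peaks, and of the 6 in closed peaks 1 did, against 64.0% in all closed peaks. None of these 38 cores lay in masked repeats, where 5.26% of cores of all opened peaks and 5.74% of those of all closed peaks lay.

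The AP-1 string went the other way between the lists. It was in 11 of the 33 closed peaks, 33.3% (interval 19.8 to 50.4%), and in 12 of the 74 opened ones, 16.2% (interval 9.53 to 26.2%). The whole lists had the same order, 24.1% and 12.0%, and the shares matched in width were 27.0% and 11.7%, all inside the intervals. Over both directions the string was in 21.5% of the peaks, and in 11.1% when start sites of any gene type were used. Closed peaks with AP-1 strings belonged to Ccn1 and Amotl1 (3 each), Nt5e (2), Axl, Crim1 and Ptpn14. A TEAD core and an AP-1 string shared 8 of the 107 peaks (7.48%, interval 3.84 to 14.1%), 5 opened and 3 closed, against 3.67% of all listed peaks. The FOX string TGTTTAC, a core of forkhead factor sites, was in 12 opened peaks, 16.2% (interval 9.53 to 26.2%, against 9.50% of all opened peaks and 9.01% of those matched in width), 4 each at Cd44 and Crim1. The lower end of this interval is barely above both shares, 9.53% against 9.50% and 9.01%. A recount of opened peaks without Cd44 and Crim1 was not made. In the Cd44 peak at chr2:102878737-102878948 the only FOX string lay in a masked repeat. The FOX string was in 3 closed peaks, 9.09% (interval 3.14 to 23.6%, against 11.4% of all closed peaks and 13.0% of those matched in width). The string GTGGGAA of RBPJ, the factor through which Notch acts on genes such as Hes1, was in 4 opened peaks, 5.41%, and 2 closed ones, 6.06%, with 9.17% and 5.68% in the whole lists and 8.23% and 7.23% in peaks matched in width. All strings were searched on both strands without mismatches, and a match does not show that a factor was bound.

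**Figure D4:**
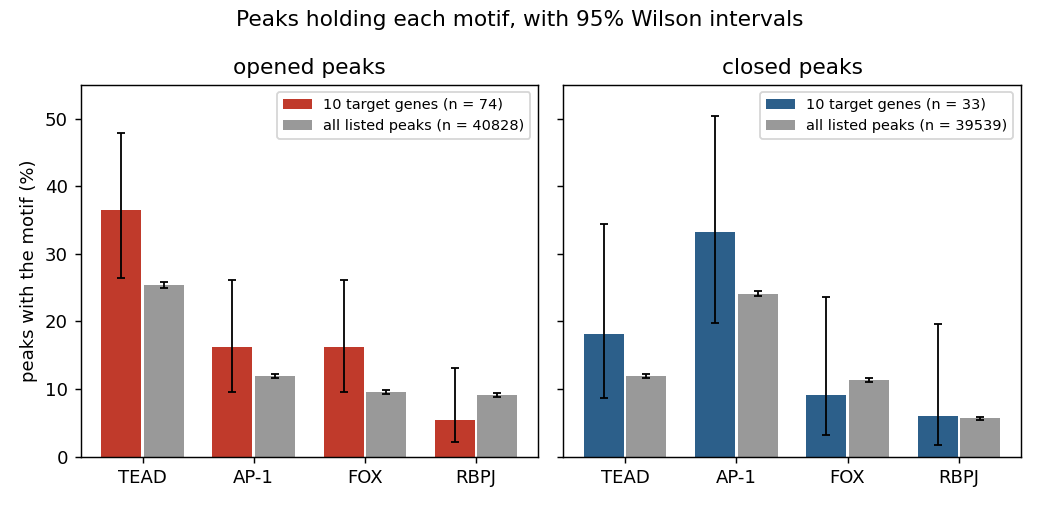
Share of opened (left) and closed (right) peaks that hold each string, for the 10 genes in color and for all listed peaks of that direction in grey, with 95% Wilson intervals. The TEAD core was in 36.5% of the opened peaks of the 10 genes and the AP-1 string in 33.3% of their closed peaks. In opened peaks the intervals of the 10 genes for TEAD and FOX start just above the shares of all opened peaks, for FOX at 9.53% against 9.50%.

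In the promoter sequences of RefSeq, 250 bases before to 50 after a gene's start, all 10 genes had an entry. The TEAD core was in the promoters of Ajuba (2 cores), Ccn1, Axl, Crim1 and Ptpn14, and in 14.7% of 32851 RefSeq promoters. Of these 5, listed peaks overlapped those of Ajuba, Ccn1 and Ptpn14, and none overlapped those of Axl and Crim1. The listed peak that overlapped the promoter of Ajuba held neither of its 2 cores. The AP-1 string was in the promoter of F3, and in 5.20% of all promoters. The promoter of Fstl1 overlapped an opened peak and held none of the 4 strings.

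The other genes of the Hippo pathway gave the surroundings of these targets. Of 26 upstream and nuclear genes, 20 had an opened and 17 a closed peak, with 164 opened peaks of 230 (71.3%, against 50.8% of all listed peaks). Over all protein-coding genes, 52.3% had an opened and 42.2% a closed peak, 26.7% an opened promoter and 8.46% a closed one. An opened promoter peak was listed at 13 of them, among them Yap1 and Wwtr1 (TAZ) with 2 each and all of Tead1, Tead2, Tead3 and Tead4, and a closed one at 4, Tead1, Vgll2, Taok2 and Dchs1. Wwtr1 had 11 opened peaks and no closed one. Vgll4, which competes with YAP for TEAD, had 24 opened peaks and no closed one, with 1 opened promoter peak. Fat4, the protocadherin at the top of the pathway, had 4 opened and 19 closed peaks and no promoter peak. Of 16 other target genes, all 16 had an opened and 13 a closed peak, with 139 opened peaks of 206 (67.5%, beside 69.2% at the 10 genes). Opened promoter peaks were listed at 8 of the 16 and closed ones at 2, Asap1 and Arhgef17. Opened peaks outnumbered closed ones at 13 of the 16, but Asap1 had 9 opened and 15 closed peaks and Rbms3 had 13 opened and 21 closed. Ccn2, the nearest relative of Ccn1 in this set, had 12 opened and 3 closed peaks with an opened promoter, against 6 and 7 at Ccn1. Amotl2, the paralogue of Amotl1, had 17 opened peaks and no closed one, with 2 opened promoter peaks, against 7 and 7 and no promoter peak at Amotl1.

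**Figure D5:**
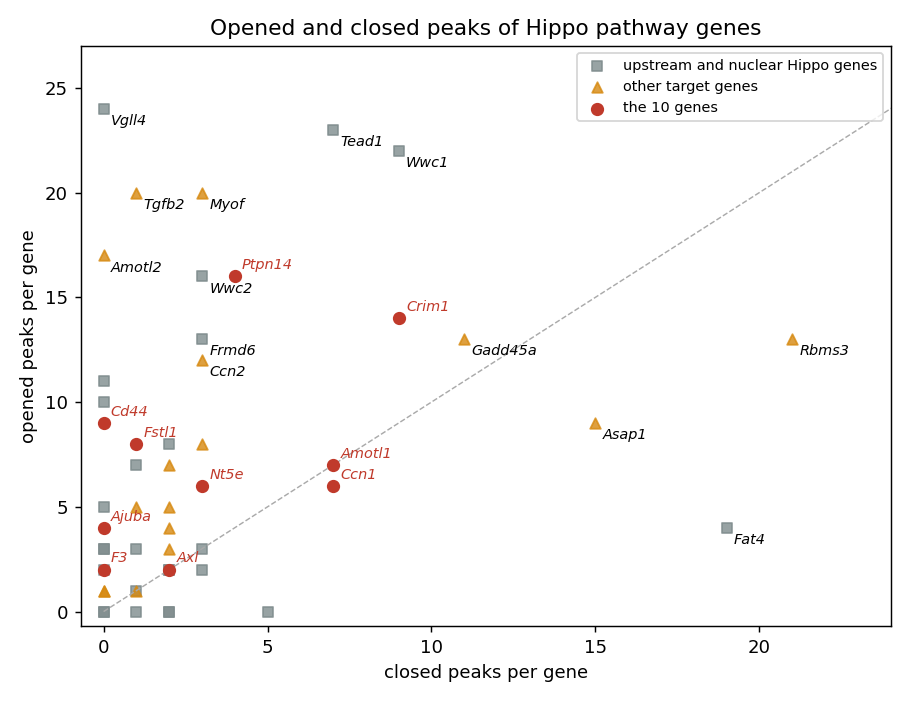
Opened against closed peaks of each gene for the 10 genes (red circles), 26 upstream and nuclear Hippo genes (grey squares) and 16 other target genes (orange triangles), with equal numbers on the dashed line. Among the 10 genes Ccn1 lies under the line and Axl and Amotl1 on it, and Amotl2 and Vgll4 lie far above it on the left edge.

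The labelled cell types were checked by marker genes. Of 8 NE genes, 7 had a closed promoter peak in GFPhigh cells, against 8.46% of all genes, and none an opened one, against 26.7%. The list had 60 closed and 11 opened peaks (15.5% opened, against 50.8% of all listed peaks). Insm1 gave 28 of the closed peaks, and Chga went the other way by number of peaks, with 8 opened and 6 closed. All 3 club cell genes had an opened promoter peak (20 opened, 3 closed), and so did Hes1 (26 opened, 11 closed). Cd44, Axl, F3 and Nt5e are also made by leukocytes, endothelium or fibroblasts, so the markers of these cells stand beside them. Leukocyte genes had 14 opened and 7 closed peaks (66.7% opened, against 50.8% of all listed peaks), with an opened promoter at Cd68. Ptprc, which encodes CD45, had 11 opened and 5 closed peaks among these, and no promoter peak. The sequence nearest to its start sites spans 657 kb. Itgam had no listed peak. Endothelial genes had 13 opened and 48 closed peaks, with an opened promoter at Kdr and closed ones at Tek and Erg. Fibroblast genes had 10 opened and 15 closed peaks, with an opened promoter at Col1a1 and closed ones at Col1a2 and Thy1. Epithelial genes had 31 opened and 17 closed peaks, with opened promoters at 4 of 5, whereas Epcam had 3 opened and 6 closed peaks and no promoter peak. The part of such cells in the opened peaks of the 10 genes was not tested.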

How the data were processed

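ATAC-seq was done on sorted GFPhigh and GFPneg SCLC cells. The authors trimmed the reads, aligned them to mm10 with Bowtie2 2.3.4.1, removed duplicates with Samtools, called narrow peaks with MACS2, shifting and extending reads around Tn5 cuts, pooled all peaks into 1 merged set and counted reads per sample in it with bedtools. The authors compared the groups with DESeq2 1.28.1 and kept peaks past limits on the adjusted p-value and fold change. Peaks that did not pass these limits were not analysed here, so shares refer to listed peaks, not to all accessible sites. Whether lanes and the technical replicate, the second pair of the mouse with 2 pairs, were summed first is not given in the sources used here.

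The signal the authors deposited per peak, the mean over libraries of counts divided by size factors, was used with the positions and the list of each peak. The other 5 columns hold the authors' own comparison (log2 fold change, its error, test statistic, p-value and adjusted p-value) and were not used. Since no value per library is given, neither depth nor replicate error could be computed, and groups were not tested.

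Peaks were assigned to the nearest protein-coding start site of GENCODE release M 21 (basic), all 1-based on mm10. Strings were searched in the whole peak of GRCm38.p6. Shares matched in width use all listed peaks of the same direction in classes of 100 bases, weighted as the peaks of the 10 genes. Python 3.11.15, numpy 2.4.6, pandas 2.3.3, scipy 1.17.1, pysam 0.24.0 and matplotlib 3.10.9 were used, and assignment and search were tested on simulated data. The 10 genes, the other gene lists and the strings were chosen with earlier results of these data known. By rule, all 10 genes were named, with their promoter peaks, the highest peak in each direction and those with a TEAD and an AP-1 string, and other Hippo genes with a listed promoter peak or at least 10 listed peaks. Some items that the rule covers are not reported here. The blocks of Crim1, the neighbouring pairs of opposite direction and some other high or low peaks were named after their values were seen. Alternatives changed the assignment, the peaks used, the promoter distance, the window searched and the TEAD string.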

Additional observations from a re-analysis of the deposited data

How the results depend on the processing

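Of 68 recomputed values, 62 stayed inside the range set for the value they replaced, which was the Wilson interval for a share, 71.3 to 160 for the number of peaks, and the quartiles for the median mean normalized count. The opened share of the peaks of the 10 genes was lowest, 60.4%, among peaks with a mean normalized count of at least 50, where it lay under the 64.4% of all such listed peaks, and highest, 76.3%, under that limit, a split added after seeing the data. Added likewise, leaving out each gene in turn moved the share of opened peaks with the TEAD core between 32.4 and 43.3%, and leaving out Ccn1 and Ptpn14 together gave 26.9%. Promoter shares ran from 7.69 to 15.9%. The number of peaks fell from 107 to 63 with start sites of any gene type, which gives peaks near non-coding genes away, and to 48 with a mean normalized count of at least 50, which also raised the median mean normalized count from 41.0 to 92.6 by its construction. The share of peaks with the TEAD core fell from 30.8% to 20.6% in the central 200 bases and to 6.54% with the 8-base string, by fewer letters searched and by a longer string. The share with an AP-1 string fell from 21.5% to 11.1% with start sites of any gene type, and the cause was not tested. Shares with FOX (9.52 to 14.7%) and RBPJ strings (3.74 to 8.33%) moved less than their intervals. No paired analysis was possible because no value per library is given, and for the same reason no library could be left out. Depth per library is unknown, and peaks that missed the authors' limits are not in the lists, so a gene without a listed peak may still have accessible sites.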
